A study of Mus musculus with 6 samples.

Results

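The ferritin genes were examined in R1 mouse embryonic stem cells (male, from a 129X1 x 129S1 cross), with AA2G set against no addition. They comprise the ubiquitous heavy chain gene Fth1 and light chain gene Ftl1, the mitochondrial ferritin gene Ftmt, and Fthl17a to Fthl17f, heavy chain-like copies on the X chromosome. Every row of the expression table whose listed gene symbols include one of these 9 names was taken, also where a row lists several Fthl17 copies. This gave 14 features of 41345 in the table. Of these, 6 list Fthl17 copies, 7 list Fth1 or Ftl1, and 1 lists Ftmt. A feature is the array's summary of all probes assigned to a transcript cluster, and 8 of the 9 genes have at least 1. Fthl17c has none, and Fthl17d appears only on features shared with other copies.

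The cells were cultured for 3 days with 0.74 mM (250 µg/ml) AA2G, a glucosylated vitamin C derivative, or left untreated. Both groups were grown on gelatin in medium with serum and the self-renewal cytokine LIF. Each group has 3 replicates, each run on 1 Affymetrix Mouse Gene 2.0 ST array. All samples come from a single line, so the results describe that line. The 6 arrays had medians of 5.06 to 5.10 (log2), and the lowest correlation of any array with another of its group, taken across features, was 0.990. Stem cell markers differed in level, with Nanog at 11.17 ± 0.04 in AA2G cells and 11.34 ± 0.03 in untreated cells, Pou5f1 at 7.47 ± 0.01 in AA2G cells and 7.64 ± 0.02 in untreated cells, and Dppa5a near the array medians, at 5.08 ± 0.10 in AA2G cells and 5.15 ± 0.09 in untreated cells (log2, SD, n = 3 each). Of 10 such markers, 0 were called changed by limma at an adjusted p under 0.05, and 3 had an unadjusted p under 0.05, all lower in AA2G cells (5.01% of all features were). These were Nanog, Pou5f1 and Klf4. Klf4 differed most, with a log2 difference (AA2G minus untreated) of -0.31 (limma adjusted p = 0.121). Of the 10, 8 were lower and 2 higher, with a median log2 difference of -0.10.

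Ferritin is a hollow protein shell that stores iron in a safe form. Its heavy chain oxidises ferrous iron on entry, and its light chain helps the mineral core to form. When iron is scarce, the iron regulatory proteins bind ferritin mRNAs and hold back their translation, so mRNA measurements do not report the amount of ferritin protein. Fthl17 genes are known from male germ cells, where the human FTHL17 gene is classed with the cancer-testis genes, and in mouse also from the early embryo. Ascorbate reduces iron, and iron enzymes that demethylate DNA and histones use it as a cofactor.

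The Fthl17 copies fall into a cluster and a lone gene. In the order of RefSeq genes on the X chromosome, Fthl17b, Fthl17c, Fthl17d, Fthl17e and Fthl17f lie together with annotated pseudogenes of the family, 8 copies in all, while Fthl17a lies 1122 annotated genes away. The promoter sequences below (RefSeq, GRCm38.p6) are shown because they separate the same 2 sets. For the cluster copies the 120 bases run from 90 before the first TATAAA to 24 after it. For Fthl17a, which has no TATAAA in its promoter, they are the 120 bases before its annotated start. In the cluster copies TATAAA begins between -129 (Fthl17d) and -54 (Fthl17e) from the annotated start. Their windows end before that start and are not matched in position with that of Fthl17a. Each is written 5′ to 3′ along the gene, and capitals mark TATAAA and every CpG. Fthl17b (chrX:8963007-8963126, minus strand) and Fthl17c (chrX:8976591-8976710, minus strand) have the same letters, as have Fthl17d (chrX:8986772-8986891, minus strand) and Fthl17e (chrX:9033342-9033461, plus strand). Fthl17f lies at chrX:9062879-9062998 and Fthl17a at chrX:85249557-85249676, both on the plus strand.
Fthl17b and Fthl17c: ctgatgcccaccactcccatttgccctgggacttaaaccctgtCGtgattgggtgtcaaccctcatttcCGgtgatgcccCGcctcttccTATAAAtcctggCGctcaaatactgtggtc
Fthl17d and Fthl17e: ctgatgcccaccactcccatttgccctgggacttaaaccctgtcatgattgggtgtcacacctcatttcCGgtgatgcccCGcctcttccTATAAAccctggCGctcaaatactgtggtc
Fthl17f: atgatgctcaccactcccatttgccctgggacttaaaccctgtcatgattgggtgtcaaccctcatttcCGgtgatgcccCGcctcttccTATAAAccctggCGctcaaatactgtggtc
Fthl17a: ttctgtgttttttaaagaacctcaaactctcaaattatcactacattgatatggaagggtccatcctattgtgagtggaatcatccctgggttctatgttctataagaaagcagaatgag
Of the 120 positions, 114 are alike in all 5 cluster copies. Counted from 1 at the 5′ end of the window, and with the base of Fthl17e first, Fthl17b and Fthl17c differ from Fthl17e by A45G, C59A, A60C and C97T. Fthl17f differs from it by C1A, C8T, C59A and A60C. A45G adds a CpG, so the window holds 4 CpG in Fthl17b and Fthl17c and 3 in the other cluster copies. The window of Fthl17a holds 0.

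Within the full 300-base promoters (250 before to 50 after the annotated start), 5 short motifs were searched on both strands. They were chosen after the promoters had been read. TATAAA was found in the promoters of all 5 cluster copies and in 13.6% of the 32851 promoters of that length, CCAAT in all 5 and in 37.4%, and CCGGAA, the core of ETS factor sites, in all 5 and in 14.9%. None of these 3 was found in the promoter of Fthl17a. Ftl1 and 1 of the Fth1 promoters also hold TATAAA, in Ftl1 downstream of the start. CCAAT was also found in Ftl1 and in the other Fth1 promoter. The cluster copies are nearly alike in the windows shown, so the 5 are not separate observations. The E-box CACGTG, held by 7.15% of all promoters, was in no ferritin promoter, and GGGCGG, held by 35.7%, was in that of Fthl17f alone among the Fthl17 copies. CpG numbered 8 in Fthl17b, Fthl17c and Fthl17e, 9 in Fthl17d and 11 in Fthl17f, where the median promoter has 7, and Fthl17a has 1. The ubiquitous genes have more, with 20 in Ftl1 and 27 in the CpG-richer of the 2 promoters that RefSeq gives for Fth1, against 4 in the other. These matches describe letters in a window and do not show that a factor binds there.

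Expression of the clustered Fthl17 copies was higher in AA2G cells, by 1.76 to 2.14 times at 4 of their 5 features, while Fthl17a did not pass the test. The family was selected on the AA2G against untreated differences of these same arrays, so its values are a description and its calls are no independent evidence. In a limma model of all 25335 features with a listed symbol, 0.801% were called at a Benjamini-Hochberg adjusted p under 0.05 in either direction, 0.659% as higher. Of the 6 Fthl17 features 4 were called higher and 0 lower. At 5 of the 6 all AA2G arrays lay above all untreated arrays, which was so at 7.28% of all features.

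The feature that lists Fthl17e alone (17533187) had log2 values of 4.98, 4.96 and 5.10 in AA2G cells, against 3.72, 4.10 and 3.93 in untreated cells. The groups did not overlap, and the lowest AA2G array stood 0.85 above the highest untreated array. The fitted log2 difference was 1.09 ± 0.11 (SE), a 2.14-fold higher signal, with a limma adjusted p of 0.00376.

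Fthl17b, measured by a feature of its own (17540136), had 6.52, 6.56 and 6.12 in AA2G cells and 5.45, 5.17 and 5.44 in untreated cells (log2). AA2G replicate 3 was the lowest of its group, and still 0.66 above the highest untreated array. The log2 difference was 1.05 ± 0.14 (SE), or 2.07-fold, with a limma adjusted p of 0.0137. The call was marginal. With an array left out the log2 difference stayed between 0.96 and 1.19, but the adjusted p was 0.0521 without AA2G replicate 1, 0.0596 without AA2G replicate 2, 0.0515 without untreated replicate 2 and 0.0622 without untreated replicate 3. With all 6 arrays it was 0.0638 when features without a symbol were added and 0.24 without moderated variances.

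Both features that list Fthl17b, Fthl17d, Fthl17e and Fthl17f together rose. The one numbered 17540144 had 5.66, 5.49 and 5.50 in AA2G cells and 4.68, 4.77 and 4.74 in untreated cells, with the smallest spread of the family in untreated cells (SD 0.04, n = 3). Its log2 difference was 0.82 ± 0.08 (SE), 1.76-fold, with a limma adjusted p of 0.0032. The one numbered 17540140 had 5.45, 5.68 and 5.67 in AA2G cells and 4.86, 4.83 and 4.48 in untreated cells. It differed by 0.88 ± 0.12 (SE), 1.83-fold, with a limma adjusted p of 0.0181, a call that was lost without AA2G replicate 2 (adjusted p 0.088, log2 difference 0.83) and without AA2G replicate 3 (0.0888, 0.84). It was also lost with features without a symbol added (0.0743) and without moderated variances (0.24). Neither feature can be given to 1 copy. Probes may be shared between copies this alike, so the 4 calls are not 4 independent genes. The calls of Fthl17e and of feature 17540144 held with each array left out, with adjusted p up to 0.0311 and 0.0285.

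Fthl17f (feature 17533191) had 6.06, 6.32 and 6.09 in AA2G cells and 5.86, 5.71 and 5.85 in untreated cells. Its groups did not overlap either, but the gap between them was 0.20, and the log2 difference of 0.35 ± 0.09 (SE) did not pass (limma adjusted p = 0.202). Non-overlapping groups occurred in 15.6% of all features. Fthl17a (feature 17536165) had 4.87, 5.20 and 5.13 in AA2G cells and 4.83, 4.93 and 5.30 in untreated cells, and the groups overlapped. Its log2 difference was 0.05, with a 95% interval from -0.27 to 0.37. That interval ends below the differences fitted for Fthl17b, Fthl17e and the shared features, though the difference between copies was not tested. The plot of the Fthl17 values by array shows the 5 cluster features apart by group and Fthl17a mixed.

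**Figure D1:**
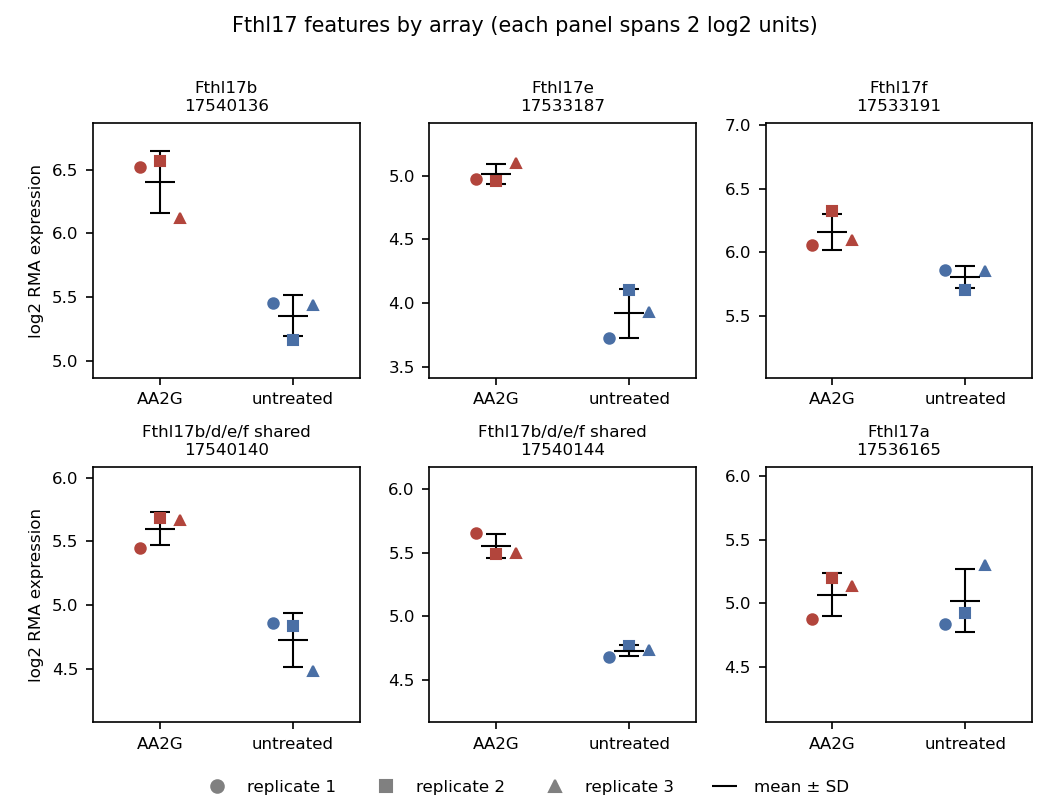
Log2 RMA expression of the 6 Fthl17 features in AA2G and untreated cells, with 1 point per array (shape: replicate number) and the mean ± SD of 3 arrays; every panel spans 2 log2 units. All AA2G arrays lie above all untreated arrays at the 5 cluster features, and the groups overlap at Fthl17a.

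The table carries no detection calls, and the untreated Fthl17 values ran from 3.72 to 5.86, where the array medians are 5.06 to 5.10. Fthl17e was the dimmest, at 3.92 ± 0.19 in untreated cells (SD, n = 3), and fell below the brightness limit of one alternative setting. Background may make up part of such low signals, which was not measured. Whether more cells carried these transcripts or each cell carried more cannot be told apart in RNA from whole cultures.

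The ubiquitous ferritins did not pass the test. Fth1 (feature 17357418) had 11.67, 11.71 and 11.70 in AA2G cells and 11.60, 11.71 and 11.67 in untreated cells. The arrays of both groups lay within the same narrow range, and the log2 difference was 0.03 ± 0.07 (SE; limma adjusted p = 0.932), with a 95% interval from -0.13 to 0.19. A rise of the size fitted for Fthl17e lies outside that interval.

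Ftl1 is listed on 6 features, each together with the pseudogenes Ftl1-ps2 or Ftl2-ps and Ftl1-ps2, so no signal belongs to the functional gene alone. Features 17340522 and 17418483 hold the same values on every array and count as 1 measurement. They had 12.67, 12.54 and 12.68 in AA2G cells and 12.62, 12.48 and 12.64 in untreated cells, a log2 difference of 0.05 ± 0.08 (SE). Replicate 2 was the lowest array in both groups here. The same was seen at feature 17288650 (12.34, 12.22 and 12.32 in AA2G cells, 12.30, 12.16 and 12.32 in untreated cells) and at feature 17547620 (9.71, 9.57 and 9.84 in AA2G cells, 9.67, 9.43 and 9.76 in untreated cells). The groups overlapped at each of these features.

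The other Ftl1 features varied more between arrays. Feature 17477832 had 8.71, 8.64 and 8.99 in AA2G cells and 8.99, 8.45 and 8.98 in untreated cells. Feature 17490830 had 8.10, 8.42 and 8.10 in AA2G cells and 8.09, 8.50 and 8.41 in untreated cells, with a log2 difference of -0.13 ± 0.13 (SE). At this feature replicate 2 was the highest array of each group. Over the 6 Ftl1 features, which hold 5 distinct measurements, the log2 differences ran from -0.13 to 0.09. Their median was 0.04 with the repeated measurement counted at both features. Limma called 0 of the 6 (0 also at an unadjusted p under 0.05), and the groups overlapped at all 6. Among all features 0.801% were called, 9.69% had an unadjusted p under 0.05 and 15.6% had groups apart. The 95% intervals of the Ftl1 features together reach from -0.43 to 0.35. A feature that lists the pseudogene Ftl1-ps2 alone had a log2 difference of -0.07 (limma adjusted p = 0.927).

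**Figure D2:**
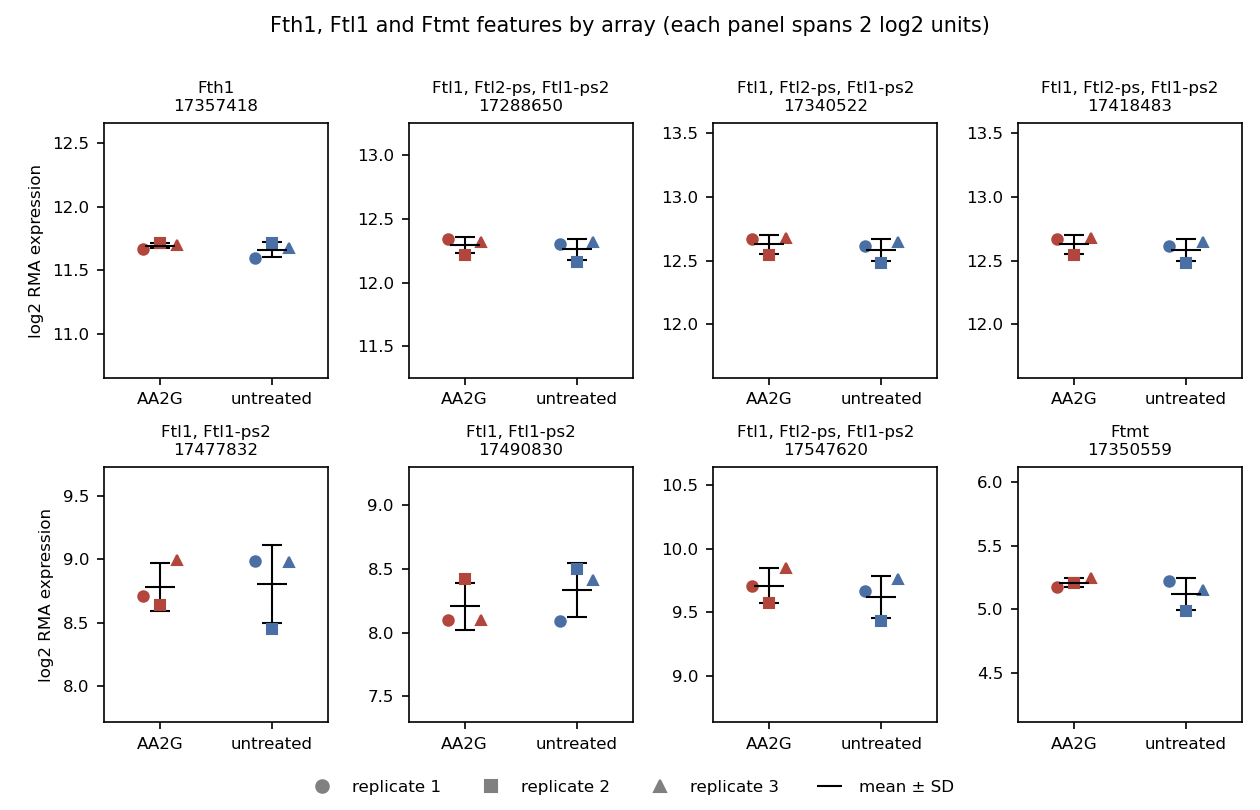
Log2 RMA expression of the Fth1, Ftl1 and Ftmt features in AA2G and untreated cells, with 1 point per array (shape: replicate number) and the mean ± SD of 3 arrays; every panel spans 2 log2 units. The groups overlap in all 8 panels, and features 17340522 and 17418483 are the same measurement.

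Ftmt encodes a ferritin of heavy chain type that is sent to mitochondria and is known mainly from testis and other tissues of high oxygen use. Its feature (17350559) had 5.17, 5.21 and 5.25 in AA2G cells and 5.22, 4.98 and 5.15 in untreated cells. The groups overlapped, and the log2 difference was 0.09 ± 0.08 (SE; limma adjusted p = 0.808), with a 95% interval from -0.10 to 0.28. The plot of fitted changes sets all ferritin features side by side.

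**Figure D3:**
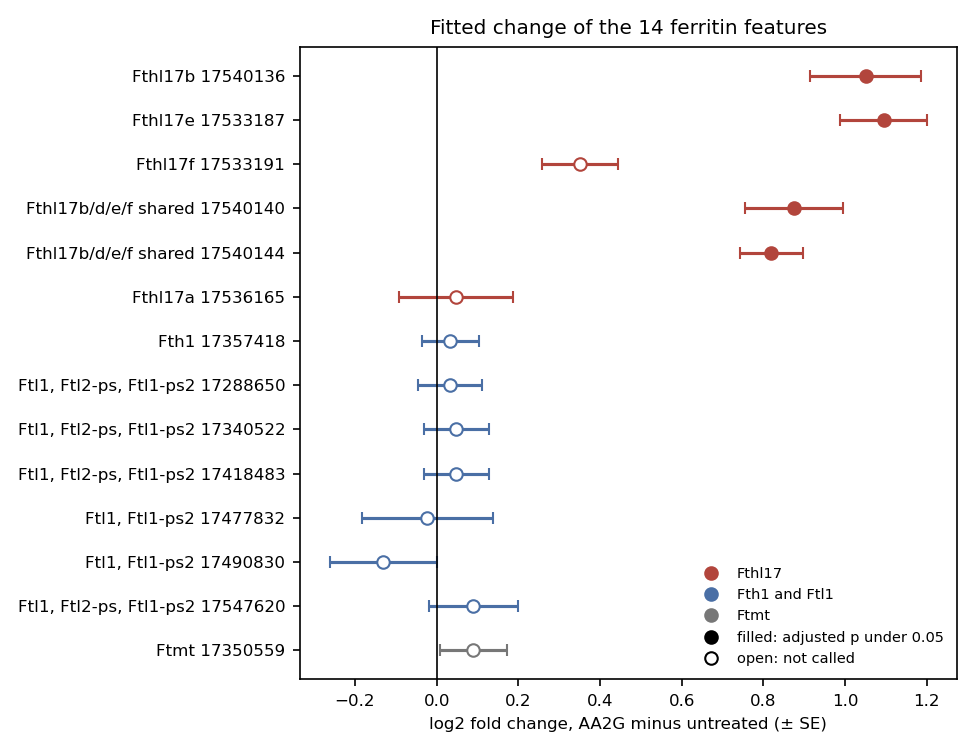
Fitted log2 fold change (AA2G minus untreated, ± SE) of the 14 ferritin features, with filled points for those past an adjusted p of 0.05 in limma. Fthl17b, Fthl17e and both shared features lie between 0.82 and 1.09, Fthl17f at 0.35, and the other features between -0.13 and 0.09.

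Genes beside the Fthl17 copies on the X chromosome did not pass. The 4 nearest measured genes on each side of the cluster and of Fthl17a, 16 in all, gave 0 limma calls and log2 differences from -0.32 to 0.31 with a median of 0.00. Genes without a feature of their own were passed over. Between Ssxb5 and the cluster lie 9 annotated genes, and between Tmem47 and Fthl17a 22. Most neighbours were dim, such as Ssxb5 (2.06 in AA2G cells, 1.97 in untreated cells) and Samt3 (2.50 and 2.42), which limits what they can show. Beside the cluster only Xk and H2al1m had means above the array medians, and beside Fthl17a only Tmem47 and Tab3. At an unadjusted p under 0.05 there was 1, Tmem47, on the side of Fthl17a, at 10.14 ± 0.19 in AA2G cells and 10.46 ± 0.15 in untreated cells (log2, SD, n = 3 each; limma adjusted p = 0.399). Non-overlapping groups were found at 2 of the 16, Tmem47 and the dystrophin gene Dmd, both lower. Over all features 0.801% were called, 9.69% had an unadjusted p under 0.05 and 15.6% had groups apart, so the counts of the neighbours lie near the background. Beside the cluster the largest difference was that of Cybb, which encodes a subunit of the phagocyte NADPH oxidase, at 0.31 ± 0.14 (SE; limma adjusted p = 0.52). Lancl3 and Xk, which lie on the same side as Cybb and nearer to Fthl17f, were at -0.12 ± 0.08 and -0.11 ± 0.08, by the brighter of the features of Lancl3; its other feature was at 0.15 ± 0.13. H2al1m, also on the side of Cybb, was at 0.13 ± 0.20 (SE), with untreated arrays at 6.74, 5.99 and 6.82. The second, dimmer feature of Tmem47 was at -0.13 ± 0.10. On the opposite side, B630019K06Rik was at -0.05 ± 0.12, Gm5751 at -0.09 ± 0.18, Gm6592 at 0.27 ± 0.25 and Ssxb5 at 0.10 ± 0.09 (SE). Within the bounds of the cluster 1 gene outside the family was measured, 4930402K13Rik, at -0.13 ± 0.09 (SE).

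**Figure D4:**
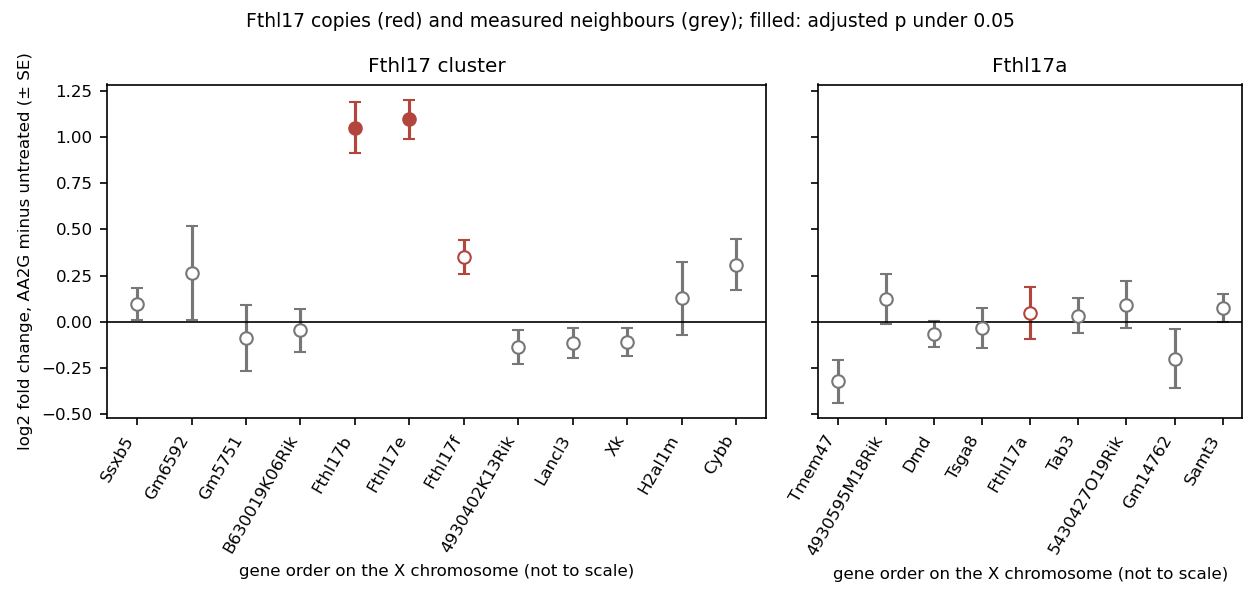
Fitted log2 fold change (AA2G minus untreated, ± SE) of Fthl17 copies with a feature of their own (red) and of measured neighbours (grey) in gene order on the X chromosome, not to scale; features shared by several copies are left out. Fthl17b and Fthl17e stand at 1.05 and 1.09, while the neighbours lie between -0.32 and 0.31.

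The profiles most like that of a single Fthl17 feature, and that of Fth1, were sought among 20015 features. The measure was the root mean square difference of row-centred log2 values over the 6 arrays. For Fthl17f, the Fthl17 feature with the highest mean over all 6 arrays (Fthl17b was brighter in AA2G cells alone), they were Tmem144 (0.05), Pros1 (0.05), Brca2 (0.05), Creb5 (0.05) and Tmco4 (0.05), with log2 differences from 0.28 for Tmco4 to 0.42 for Creb5. None of these 5 passed in limma (adjusted p from 0.091 to 0.265). Fthl17f itself was the cluster feature that did not pass (log2 difference 0.35, limma adjusted p = 0.202). For Fth1 they were Got2, Slc19a1, Ppp2r2a, Aimp1 and Exosc10, all with log2 differences of 0.04 or less and root mean square differences of 0.01 to 0.02. Both searches pick profiles with nearly the same contrast as their starting feature. The size of these differences, and the lack of calls, are therefore set by the choice.

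Genes of iron handling moved little. The lists below were drawn up with earlier results of these data known. Of 62 measured genes in 7 lists (6 more had no feature of their own), limma called 0, also under each of the 15 alternative settings, while 0.801% of all features were called. An unadjusted p under 0.05 was reached by 4 of the 62, with 2 higher (4.69% of all features were) and 2 lower, against 9.69% of all features in either direction. The median log2 difference was -0.013, against -0.0057 over all features.

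Iron uptake held both of the higher ones. Steap3, an endosomal ferrireductase, had 6.13, 6.46 and 6.25 in AA2G cells and 5.54, 6.02 and 5.93 in untreated cells, with a log2 difference of 0.45 ± 0.14 (SE) and a limma adjusted p of 0.299. Tfrc, the transferrin receptor, had 10.17, 9.88 and 9.96 in AA2G cells and 9.81, 9.78 and 9.72 in untreated cells, and differed by 0.23 ± 0.09 (SE; limma adjusted p = 0.456). At both genes the groups did not overlap, as was so in either direction at 10 of the 62 iron genes and at 15.6% of all features. The metal importer gene Slc39a8 was at -0.26 ± 0.13 (SE). The list of 9 had a median of 0.00.

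In the list of iron export and hepcidin signalling (10 measured, median -0.05), Slc40a1, which encodes the exporter ferroportin, had 5.05, 5.39 and 4.60 in AA2G cells and 4.82, 4.96 and 4.96 in untreated cells, so that its AA2G arrays lay on both sides of the untreated ones. Hamp2, a hepcidin gene, was at -0.23 ± 0.10 (SE; unadjusted p = 0.0408), at log2 levels of 3.20 ± 0.05 in AA2G cells and 3.43 ± 0.17 in untreated cells (SD, n = 3 each; limma adjusted p = 0.476). The iron oxidase gene Heph was at -0.12 ± 0.07 and Bmp6, a ligand that induces hepcidin, at 0.09 ± 0.07.

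Iron sensing genes (5 measured, median 0.02) include the iron regulatory proteins that bind ferritin mRNAs. Aco1 was at 0.02 ± 0.10 and Ireb2 at 0.05 ± 0.07, and Fbxl5, which marks IRP2 for degradation when iron is plentiful, at 0.12 ± 0.10 (log2 difference, SE). Skp1, a subunit of that ubiquitin ligase, was at -0.11 ± 0.07 at one feature and 0.13 ± 0.07 at the other. Among genes of ferritin loading and turnover (8 measured, median -0.02), Ncoa4, the receptor that carries ferritin to lysosomes, was at 0.00 ± 0.11, with arrays from 7.98 to 8.27 in AA2G cells and from 8.06 to 8.31 in untreated cells. Herc2, of the same list, was at 0.07 ± 0.07. The iron chaperone gene Pcbp1 was at -0.10 ± 0.07 and Pcbp3 at -0.17 ± 0.08.

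Mitochondrial iron and iron-sulfur cluster genes (10 measured) had a median of 0.04, with the cluster assembly genes Lyrm4 at 0.16 ± 0.09 (0.17 at its second feature) and Isca2 at 0.10 ± 0.07 and the mitochondrial iron importer Slc25a37 at 0.16 ± 0.10. Haem genes (14 measured) had a median of -0.01, with Hmox1, the haem-degrading oxygenase, at -0.13 ± 0.08, the haem exporter Flvcr1 at -0.14 ± 0.10 and the mitochondrial transporter Abcb10 at -0.14 ± 0.08 (log2 differences, SE). Of the 6 regulators that act on ferritin genes through antioxidant elements, Nfe2l2, which encodes NRF2, had a log2 level of 9.03 ± 0.03 in AA2G cells and 9.23 ± 0.07 in untreated cells (SD, n = 3 each). All AA2G arrays were lower, where 15.6% of all features had groups apart in either direction. The difference of -0.20 ± 0.07 (SE) did not pass (limma adjusted p = 0.383). Keap1, its inhibitor, was at -0.17 ± 0.08 with its second feature at 0.03, and the repressor gene Bach1 was at 0.11 ± 0.13.

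**Figure D5:**
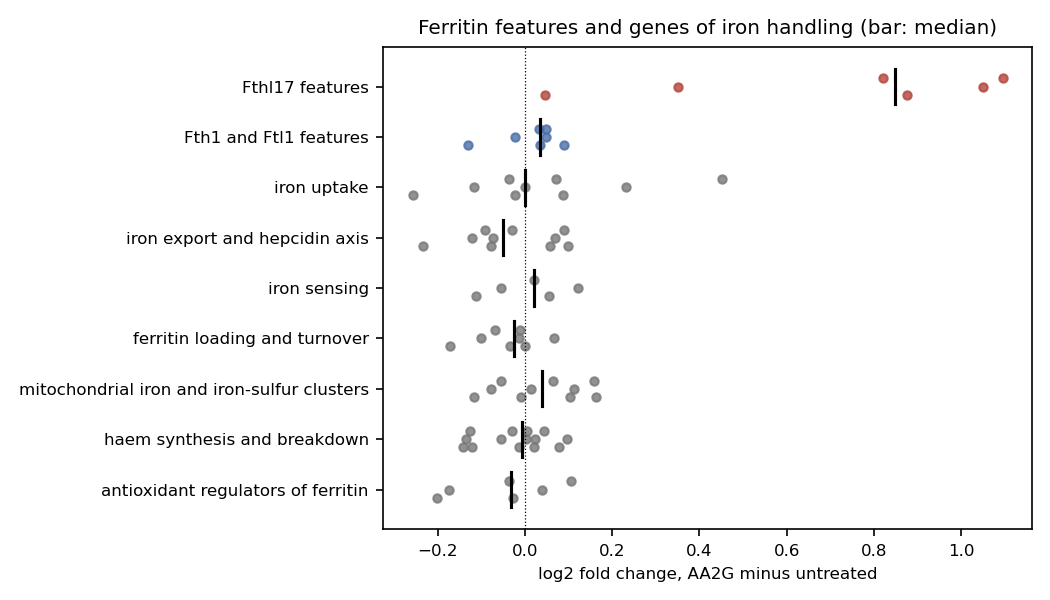
Log2 fold change (AA2G minus untreated) of the Fthl17 features, the Fth1 and Ftl1 features and the measured genes of 7 iron lists, with 1 point per feature or gene and a bar at the median. The iron genes lie between -0.26 and 0.45, and the Fthl17 features have a median of 0.85.

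Markers of other cell types were read beside the Fthl17 values. These lists too were drawn up with earlier results of these data known, so their counts are a description. Of 12 measured germ cell markers 3 were called higher by limma and 0 lower, with a median of 0.10: Dazl at 2.37 ± 0.14 (SE; adjusted p = 0.000234), Stra8 at 0.77 ± 0.11 (0.021) and Tex14 at 0.49 ± 0.08 (0.0478). Over all features 0.659% were called higher. Ddx4, a core germ cell marker, went the other way, at -0.17 ± 0.07 (SE; limma adjusted p = 0.482), with all AA2G arrays below all untreated arrays. Groups lay apart in either direction at 15.6% of all features. The summed linear signal of the 12 was 2072 to 2164 in AA2G arrays and 1260 to 1459 in untreated arrays. Much of that gap was Dazl: without it the other 11 summed to 1377 to 1463 in AA2G arrays and 1146 to 1300 in untreated arrays. Kit, the brightest of these 11 (9.50 in AA2G cells, 9.31 in untreated cells), made up much of the remaining sum. Its groups overlapped and it was not called (limma adjusted p = 0.616). The spermatid genes Prm1 and Tnp1, at 4.85 and 4.39 in AA2G cells and 4.79 and 4.41 in untreated cells, were not called. For 10 measured markers of the 2-cell-like state, a minor state of such cultures that resembles the cleavage embryo, limma called 0 (1 higher at an unadjusted p under 0.05, Zscan4e). The median was 0.07, and the summed signal was 317 to 357 in AA2G arrays and 303 to 331 in untreated arrays. Only Usp17ld (7.57 in AA2G cells, 7.45 in untreated cells) had means above the array medians, and it made up much of that sum. The other markers of this state were dim, which limits what they can show. Of 9 trophoblast, 10 primitive endoderm, 9 fibroblast, 5 erythroid and 8 macrophage markers limma called 0, while 2 higher and 5 lower ones had an unadjusted p under 0.05, as had 4.69% (higher) and 5.01% (lower) of all features. The part of these cell types in the Fthl17 values was not tested.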

How the data were processed

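The table of values, deposited by the authors, holds log2 expression; the submitters' processing notes name RMA and the Affymetrix Expression Console. No source used here gives their versions, the array build or any filter. Quantile normalization within RMA hides changes in total RNA per cell. All 6 columns were used.

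Symbols came from the platform annotation: 23521 features have 1 symbol, 1814 several and 16010 none. The 25335 with at least 1 symbol were fitted, so that shared Fthl17 features stay in. The model had no covariates and the test was two-sided (limma 3.58.1, functions lmFit and eBayes, under R 4.3.3). Benjamini-Hochberg adjustment ran over all of them, with calls under 0.05. Differences are AA2G minus untreated. The series text calls the replicates independent without naming separate cultures, so p-values measure only the spread between these samples, which may be technical; 3 arrays a group limit the precision. An exact permutation test of 3 against 3 cannot go below p = 0.1. The code was tested on simulated data.

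Members and lists were chosen with earlier results of these data known. Named genes are all member features, the 3 smallest unadjusted p of each iron list plus 7 fixed genes (Tfrc, Slc40a1, Aco1, Ireb2, Ncoa4, Pcbp1, Hmox1), the 5 nearest profiles and 4 neighbours a side; cell type markers named beyond this were chosen after their values were seen. A list gene stands by its brightest feature. The alternatives changed the scaling (quantile normalization again, or a common median), the variance model (trended robust prior, unmoderated variances, weighted arrays), the features (brighter, single-symbol or all), added replicate number as a block, or left out each array. Promoters are RefSeq's (GRCm38.p6) and matched 8 of the 9 genes; other coordinates are not reported.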

Additional observations from a re-analysis of the deposited data

How the results depend on the processing

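Of 38 named features, 29 kept the sign of their difference under all alternatives tried. The number of features called over the whole fit, 203 as reported, was 326 with a trended robust prior, 551 with array weights, 131 when features without a symbol were added, 14 with ordinary per-feature variances and from 88 to 150 with an array left out. The share of higher calls was 82.3% as reported and 63.5% with array weights.

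Of the Fthl17 features, 4 were called as reported. It was 2 with all features of the table and 2 of the 4 that remain with single-symbol features only. Ordinary per-feature variances (limma without moderation) gave 0. In that setting 5 Fthl17 features were higher at an unadjusted p under 0.05, as were 1164 of all 25335 features. With an array left out, from 2 to 4 Fthl17 features were called, the fewest without AA2G replicate 2. With the replicate number as a block 2 were called, and Fthl17b (adjusted p 0.0624) and feature 17540140 (0.0698) were not. Whether the numbers pair the samples was not settled. Deviations from the group means correlated at 0.23 and 0.22 for replicates 1 and 2 but at 0.01 for replicate 3. Replicate 1 of either group against replicate 2 of the other was at -0.22. Deviations from a group mean cancel out within the group, so these correlations are tied to one another. They are not separate pieces of evidence and cannot decide whether the numbers pair the samples. Over the 15 alternatives (14 for features with several symbols or below the brightness limit), the log2 difference ran from 1.00 to 1.19 for Fthl17e, 0.90 to 1.19 for Fthl17b, 0.77 to 0.85 for feature 17540144, 0.75 to 1.03 for feature 17540140 and 0.27 to 0.40 for Fthl17f. The adjusted p of Fthl17e ran from 0.000571 to 0.157 and that of Fthl17f from 0.104 to 0.42.

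The features whose sign turned were small and were not called in any setting. Fthl17a was at -0.08 and Slc40a1 at -0.0839 with array weights, and Ncoa4 at -0.0031 with a common median. With an array left out, Fthl17a ran from -0.0467 to 0.188, the Ftl1 features 17477832 from -0.2001 to 0.0685, 17288650 from -0.0159 to 0.07, 17340522 and 17418483 from -0.0016 to 0.0922 and 17547620 from -0.0027 to 0.1597, Ncoa4 from -0.056 to 0.0899, Slc40a1 from -0.0862 to 0.3049 and Aco1 from -0.0494 to 0.1188. The causes were not tested. Signal over background is not known from this table, which limits what the dim Fthl17 and Ftmt features can show.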

Other observations

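Fthl17b has a feature of its own and was chosen, after its values were seen, for a second search of like profiles among the 20015 features. The 5 nearest by root mean square difference of row-centred log2 values over the 6 arrays were Dnajc5g (0.09), Trim52 (0.11), Fsip2l (0.13), M1ap (0.15) and Pla2g4a (0.15). Dnajc5g was at 4.77 ± 0.21 in AA2G cells and 3.78 ± 0.04 in untreated cells, and M1ap, which is needed in male meiosis, at 7.68 ± 0.04 in AA2G cells and 6.72 ± 0.05 in untreated cells (log2, SD, n = 3 each). Pla2g4a, which encodes a cytosolic phospholipase, was at 5.52 ± 0.06 in AA2G cells and 4.46 ± 0.06 in untreated cells. The search picks profiles with the same contrast, so their difference between the groups is set by the choice.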
